A study of Homo sapiens with 7 samples.

Results

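The 42 genes described here build the machinery that copies DNA and the regulators that admit a cell into S phase. They were taken as a fixed list of symbols from a table of 19775 genes, and all 42 were found in it and passed the filter on low values. The RNA came from H1 cells, a widely used human embryonic stem cell line, here labelled wild type and grown in E8, a defined medium that holds FGF2, TGFβ and insulin. The groups were E8 alone, harvested at 48 h (n = 2), and E8 with 1 µM XMD892, harvested after 12 h in 1 sample and after 24 h and 48 h in 2 samples each. XMD892 is a kinase inhibitor, and the title of the study concerns ERK5, a mitogen-activated kinase, and cell fate in human pluripotent stem cells. E8 was sampled at 48 h alone, so the 12 h and 24 h comparisons also span a difference in harvest time.

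Before S phase, the origin recognition complex, CDC6 and CDT1 load the MCM2 to MCM7 helicase onto DNA. At the start of S phase, CDC45 and the GINS complex join that helicase, primase with polymerase alpha starts each strand, and PCNA, placed by the RFC clamp loader, holds the main polymerases. E2F transcription factors, released when cyclin-dependent kinases phosphorylate RB1, switch on many of these genes. Human embryonic stem cells are known for a short G1 phase and for keeping much of this programme active through the cycle.

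Promoter sequences are shown for the element through which E2F factors are known to act, in TYMS, E2F2 and TK1, which were called, and in 3 members that were not; TK1 is shown as a promoter without a match. RefSeq promoters on GRCh38.p14, from 250 bases before to 50 bases after the annotated start, were matched by symbol for 38 of the 42 members; MCM4, MCM5, GINS4 and CCNE2 had no entry. Capitals mark TTTCCCGC, TTTGGCGC, TTTCGCGC or TTTGCCGC on either strand, and MCM6 holds 2 pairs of matches that overlap on opposite strands.
TYMS, chr18:657603-657632 (+): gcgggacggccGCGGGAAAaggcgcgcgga
E2F2, chr1:23531234-23531333 (-): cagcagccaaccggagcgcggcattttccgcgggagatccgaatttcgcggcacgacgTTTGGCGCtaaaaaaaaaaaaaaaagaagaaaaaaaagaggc
TK1, chr17:78187235-78187334 (-): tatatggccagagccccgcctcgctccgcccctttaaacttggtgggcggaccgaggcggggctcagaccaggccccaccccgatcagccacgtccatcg
E2F1, chr20:33686398-33686497 (-): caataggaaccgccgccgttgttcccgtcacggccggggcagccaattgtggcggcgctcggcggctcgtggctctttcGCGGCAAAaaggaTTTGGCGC
PCNA, chr20:5126627-5126726 (-): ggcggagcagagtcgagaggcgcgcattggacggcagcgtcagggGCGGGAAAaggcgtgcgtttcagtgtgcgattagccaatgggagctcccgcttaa
MCM6, chr2:135876504-135876603 (-): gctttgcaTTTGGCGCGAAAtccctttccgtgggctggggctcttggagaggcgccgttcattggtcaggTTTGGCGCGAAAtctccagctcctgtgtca
Of the 38 member promoters, 18 (47.4%) held at least 1 match, against 3.33% of all 27305 promoters in the table and 5.02% of the 11998 promoters of genes in the deposited file. Among the 6 members called below, the promoters of TYMS, E2F2 and CDC6 held a match, and those of TK1, POLD1 and UNG held none. The CDC6 match lay within the first bases after its RefSeq start. The TYMS match lay before its RefSeq start but inside the gene span given for TYMS below. PCNA, MCM6 and E2F1 held matches and were not called in any comparison. Many of the members are known E2F targets, so their higher share describes the list and is not a result of these samples. A match is a run of letters and was not tested for binding.

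The libraries held 18528689 to 24148186 reads over the listed genes, and the lowest member value rested on 40 reads (CCNE2 at 48 h, replicate 1). Values are read counts divided by 1 factor per library, called normalised read counts here. All 10 markers of pluripotent stem cells were present, with POU5F1 between 42265 and 67878 and SOX2 between 4509 and 6618 over the 7 libraries. At 48 h 3 of the 10 (NANOG, LIN28B and TDGF1) were called lower than in E8, beside 6.45% of all tested genes. At 24 h these 3 and SALL4 were called lower, beside 7.56%. By estimate only 2 of the 10 were higher than in E8 at 48 h. The median log2 fold change of the 10 was -0.28 at 24 h and -0.25 at 48 h. Of 14 markers of other cell types, 5 were listed and 4 had a mean of 10 or more. Their summed level was 1950 and 2378 in E8, 3060 at 12 h, 2694 and 2737 at 24 h, then 2507 and 2266 at 48 h; their part in the results was not tested. Within this list COL1A1, a collagen gene of fibroblasts, was called higher at 12 h and 24 h and lower at 48 h (342 at 48 h and 535 in E8), and TUBB3, a neural tubulin gene, higher at all 3 times (123 at 48 h and 65.8 in E8). COL1A2, another collagen gene of this list, was not called and lay opposite to COL1A1, relative to E8, at 12 h and 48 h. COL1A2 stood at 1333 at 12 h and averaged 1644 at 24 h, 1908 at 48 h and 1533 in E8. Whether replicates were separate cultures is not stated, so p-values cover the spread among these samples alone, which may be technical. The E8 libraries stood apart from each other along the GC content of transcripts. Across the 42 members, the rank correlation between GC content and the log2 difference of E8 replicate 2 over replicate 1 was 0.82, where all 16023 tested genes with a GC value gave 0.65, and between the treated replicates of the members it was 0.27 at 24 h and -0.48 at 48 h. These members share their libraries, so the value is a description.

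**Figure D1:**
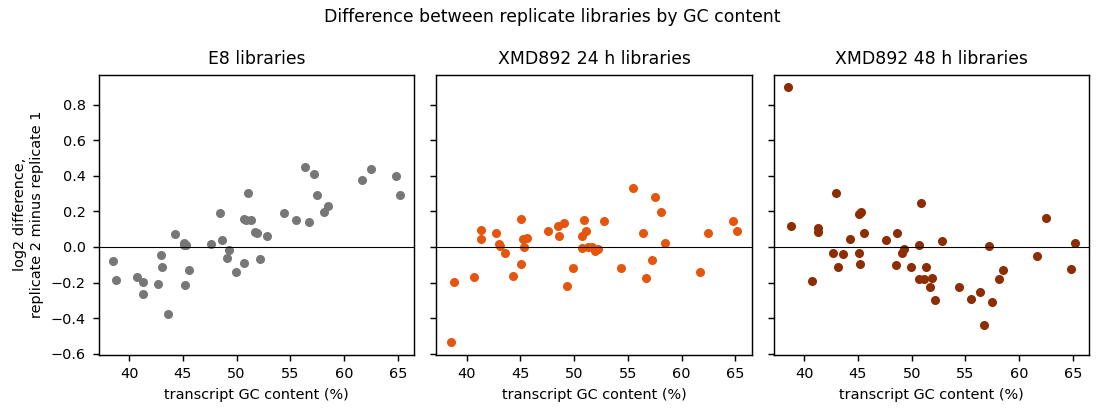
Log2 difference between the 2 libraries of a group (replicate 2 minus replicate 1) against transcript GC content in percent, 1 point per member, for E8, 24 h and 48 h of XMD892. Members rich in GC were higher in E8 replicate 2, which the rank correlation of 0.82 describes.

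All 42 genes were expressed in H1 cells through 48 h of XMD892. In the deposited scaling with all 7 libraries, by estimate none of the 42 differed from E8 by as much as 2-fold at any time. Together they made up 0.544% and 0.564% of all normalised reads in E8, 0.596% at 12 h, 0.605% and 0.614% at 24 h, with 0.597% and 0.577% at 48 h. The share was higher in each treated library than in both E8 libraries. TYMS, TK1 and POLD1 rose at 24 h and at 48 h, CDC6 and UNG rose at 24 h, and E2F2 fell at 48 h; the other 36 passed the test in no comparison. In bulk RNA, a change in the number of cells in S phase and a change in RNA per cell cannot be told apart.

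At 48 h, 3 members were higher than in E8 and 1 was lower, in limma at a p under 0.05 after Benjamini-Hochberg adjustment over the 16351 genes tested. That is 9.52% of the members, and 11.5% of all tested genes were called in this comparison (5.08% higher and 6.45% lower), so the share of members called was near the background; edgeR and DESeq2 called the same 4. At 24 h, 5 were higher and 0 lower, 11.9% of the members, against 16.2% of all tested genes (8.66% higher and 7.56% lower). At 12 h, 0 members were called, against 7.46% of all genes; 10 members had an unadjusted limma p under 0.05, as did 22.5% of all genes, and edgeR and DESeq2 also called 0. The median log2 fold change of the members was 0.19 at 12 h, 0.17 at 24 h and 0.10 at 48 h, and over all tested genes it was 0.02 at 12 h, 0.01 at 24 h and 0.02 at 48 h.

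The calls of single members depended on which libraries were kept. With 48 h replicate 2 left out 0 members were called at 48 h, with 48 h replicate 1 left out 2, and with E8 replicate 2 left out 8, where 5.03%, 4.84% and 24.8% of all genes were called. The 24 h count was 13 without E8 replicate 2, and it was 2 when 24 h replicate 1 and 1 when 24 h replicate 2 was left out, beside 30.1%, 6.76% and 10.6% of all genes. Leaving out E8 replicate 2 gave 8 calls at 12 h, and leaving out E8 replicate 1 gave 2, beside 18% and 11.5% of all genes. When the trend of each library along GC content was removed, 7 members were called at 12 h, 11 at 24 h and 8 at 48 h, and 16.4%, 20.8% and 19.6% of all genes at these times. In that fit ORC6, RFC5 and UNG joined the members called higher at 48 h, and MCM5 joined E2F2 as lower.

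**Figure D2:**
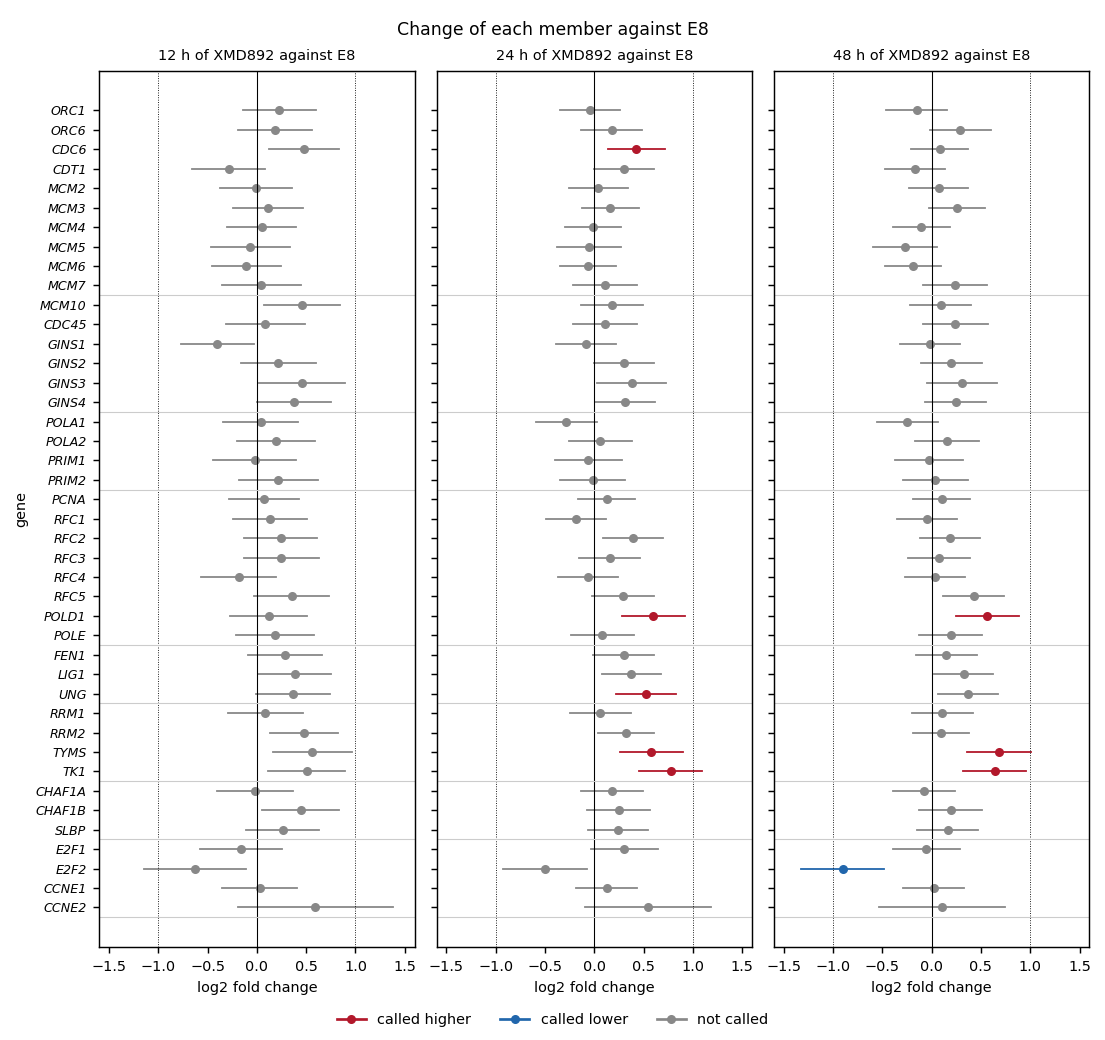
Log2 fold change of each member against E8 at 12 h, 24 h and 48 h of XMD892 (points) with its 95% interval from limma (lines), ordered by role; dotted lines mark 2-fold. All points lie between the dotted lines, 5 members are called higher at 24 h, and at 48 h 3 are called higher and 1 lower.

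The intervals show how large a change the libraries leave possible. At 48 h the 95% interval of the log2 fold change lay within 2-fold either way for 40 of 42 members and within 1.5-fold for 31. TYMS, whose interval ran up to 1.01, and E2F2, down to -1.33, were the exceptions at 2-fold. By estimate, 40 members lay within 1.5-fold of E8 at 12 h, 40 at 24 h and 39 at 48 h, while 76.3%, 77.6% and 79.5% of all tested genes did at these times.

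Nucleotide supply held the clearest rises. Thymidylate synthase, encoded by TYMS, makes thymidylate from deoxyuridylate, and thymidine kinase, encoded by TK1, recovers it from thymidine. TYMS (chromosome 18, 657604 to 673578, GRCh38) had 739 and 821 normalised reads in E8, 1152 at 12 h, 1106 and 1227 at 24 h, then 1151 and 1365 at 48 h. Every treated library lay above both E8 libraries. TYMS averaged 1258 ± 151 at 48 h and 780 ± 58.5 in E8 (SD, n = 2 each), with a log2 fold change of 0.69 ± 0.16 (SE), 1.61-fold higher, and a limma adjusted p of 0.0059. The call was lost in 1 of 22 alternatives, without 48 h replicate 2, where the adjusted p was 0.12. At 24 h TYMS had a log2 fold change of 0.58 (limma adjusted p = 0.015), a call lost without either 24 h library. TYMS shares 967 exon bases with ENOSF1 and 183 with TYMSOS on the opposite strand, and the strand setting of the counting is not given in the sources used here. ENOSF1 stood at 756 and 739 at 48 h and at 711 and 694 in E8, and TYMSOS at no more than 67.2 in any library.

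TK1 (chromosome 17, 78174075 to 78187233) had 1251 and 1623 in E8, 2025 at 12 h, 2565 and 2323 at 24 h, with 2262 and 2184 at 48 h. Both E8 values were the lowest, and 24 h replicate 1 the highest. At 24 h TK1 was 1.71-fold higher than in E8, with a log2 fold change of 0.78 ± 0.15 (SE) and a limma adjusted p of 0.0018, and it was called in each of 22 alternatives. At 48 h the log2 fold change was 0.64 (limma adjusted p = 0.0086), and the call was lost without either 48 h library. TK1 transcripts are 61.7% GC and TK1 differed by 0.37 on the log2 scale between the E8 libraries; with the GC trend removed its log2 fold change was 0.51 at 24 h (limma adjusted p = 0.0020) and 0.51 at 48 h (limma adjusted p = 0.0018).

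The subunits of ribonucleotide reductase, which makes deoxyribonucleotides, did not pass. RRM2, its S phase subunit, had 5615 and 5125 in E8, 7469 at 12 h, 6606 and 6838 at 24 h, then 5583 and 5903 at 48 h. RRM2 was above both E8 libraries at 12 h and 24 h and overlapped them at 48 h. Its log2 fold changes were 0.48 at 12 h, 0.33 at 24 h and 0.10 at 48 h, with limma adjusted p of 0.086, 0.11 and 0.70. With the GC trend removed RRM2 was called higher at 12 h and 24 h. RRM1, the large subunit, differed from E8 by at most 0.11 on the log2 scale at the 3 times.

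**Figure D3:**
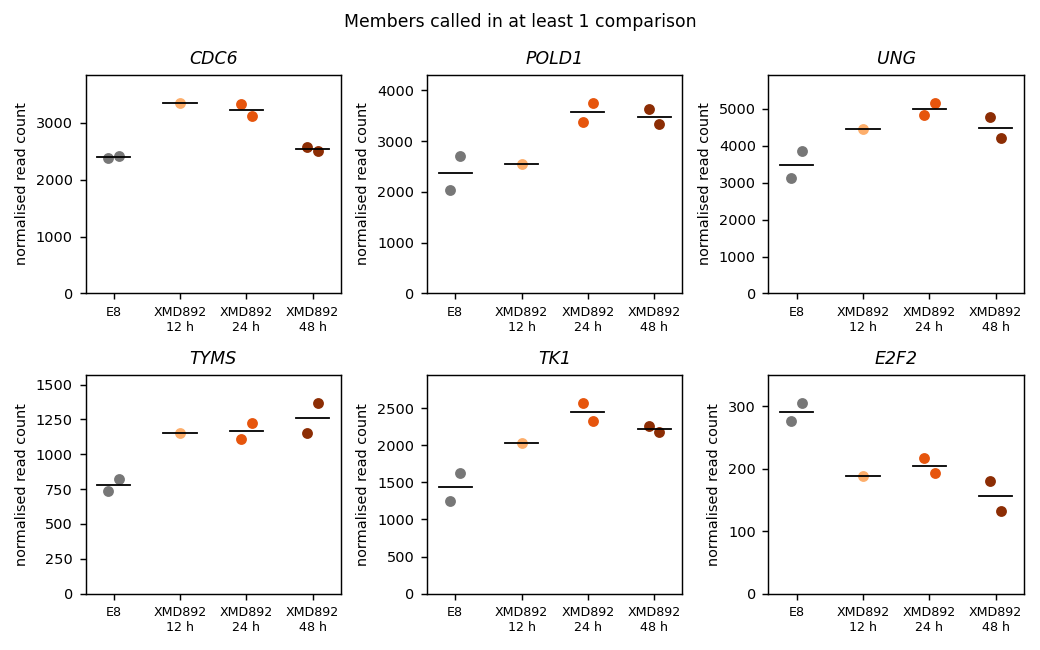
Normalised read count in each library (points) and group mean (lines) of the 6 members called in at least 1 comparison, for E8 and for 12, 24 and 48 h of XMD892; axes start at 0. TYMS and TK1 are higher in all 5 treated libraries than in both E8 libraries, E2F2 is lower in all 5, and CDC6 returns near its E8 level at 48 h.

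Among the clamp, its loader and the replicative polymerases, POLD1 was the member called. It encodes the catalytic subunit of polymerase delta, which extends the lagging strand. POLD1 (chromosome 19, 50384204 to 50418016) had 2047 and 2699 in E8, 2557 at 12 h, 3384 and 3751 at 24 h, with 3633 and 3331 at 48 h. The 12 h library lay between the E8 libraries and the later ones lay above both. Its log2 fold change was 0.57 at 48 h (1.48-fold, limma adjusted p = 0.019) and 0.60 at 24 h (1.52-fold, limma adjusted p = 0.011). POLD1 transcripts are 64.8% GC, and the 24 h call was lost with the GC trend removed and without 24 h replicate 2, while the 48 h call held with a log2 fold change of 0.46 (limma adjusted p = 0.0070). The 48 h call was also lost without E8 replicate 1 and without either 48 h library.

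PCNA, the sliding clamp, had 6064 and 5222 in E8, 5901 at 12 h, 6042 and 6240 at 24 h, then 6242 and 5850 at 48 h. Its groups overlapped at every time, and the log2 fold change at 48 h was 0.10, with a 95% interval from -0.19 to 0.39. POLE, the catalytic subunit of the leading strand polymerase, had a log2 fold change of 0.19 at 48 h and did not pass. The loader subunits RFC1 to RFC5 lay between -0.04 (RFC1) and 0.42 (RFC5) at 48 h. RFC5 had the lowest adjusted p of the uncalled members there, at 0.069 in limma, and its treated libraries all lay above E8. With the GC trend removed RFC5 was called higher at 24 h and 48 h, and RFC2 and RFC3 at 24 h.

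In the group that joins Okazaki fragments and removes uracil, UNG was called at 24 h. It encodes uracil-DNA glycosylase, which excises uracil built into DNA. UNG (chromosome 12, 109097574 to 109110992) had 3120 and 3852 in E8, 4459 at 12 h, 4844 and 5160 at 24 h, with 4772 and 4213 at 48 h. All treated libraries were above both E8 libraries, and the 24 h ones were the highest. The log2 fold change was 0.53 at 24 h (1.44-fold, limma adjusted p = 0.018) and 0.37 at 48 h (limma adjusted p = 0.11). The 24 h call was lost without either 24 h library and without E8 replicate 1. The flap nuclease gene FEN1 and the ligase gene LIG1 had log2 fold changes of 0.15 and 0.33 at 48 h, and neither passed.

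Of the 10 helicase loading genes, CDC6 was the one called. CDC6, an ATPase that loads the MCM ring together with the origin recognition complex, had 2382 and 2418 in E8, 3349 at 12 h, 3326 and 3117 at 24 h, then 2572 and 2513 at 48 h. It lay well above both E8 libraries at 12 h and 24 h, and slightly above both at 48 h. CDC6 (chromosome 17, 40287633 to 40304657) had a log2 fold change of 0.42 at 24 h, 1.34-fold, with a limma adjusted p of 0.041, and of 0.08 at 48 h. The 24 h call was lost in 7 of 22 alternatives, among them quantile normalization, a fit of E8 and 24 h alone and leaving out any 1 of the 4 libraries of 24 h and 48 h. At 12 h its log2 fold change was 0.48, with a limma adjusted p of 0.087. The difference between 48 h and 24 h was -0.34 and did not pass limma (adjusted p = 0.29).

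CDT1, which brings the MCM ring to origins and is destroyed in S phase, lay on different sides of E8 at different times in the deposited scaling, though not with the GC trend removed. It had 2472 and 3027 in E8, 2240 at 12 h, 3274 and 3483 at 24 h, with 2413 and 2452 at 48 h. The 24 h libraries were above both E8 libraries and the 12 h and 48 h libraries below both. No CDT1 comparison with E8 passed limma on all 7 libraries, with adjusted p of 0.36 at 12 h, 0.16 at 24 h and 0.49 at 48 h. CDT1 transcripts are 65.2% GC, and with the GC trend removed the log2 fold changes were -0.20 at 12 h, -0.02 at 24 h and -0.27 at 48 h, so CDT1 was then above E8 at no time. Without E8 replicate 2 CDT1 was among the members called at 24 h. ORC1 and ORC6, subunits of the origin recognition complex, had log2 fold changes of -0.15 and 0.29 at 48 h.

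The 6 MCM2 to MCM7 subunits lay between -0.27 (MCM5) and 0.25 (MCM3) on the log2 scale at 48 h, and 0 were called. MCM2 had 4724 and 5411 in E8, 5025 at 12 h, 4860 and 5565 at 24 h, then 5662 and 4992 at 48 h, with overlap at every time. MCM6 had 5403 and 4991 in E8, 4811 at 12 h, 4959 and 4980 at 24 h, with 4741 and 4392 at 48 h. MCM6 was below both E8 libraries in all 5 treated libraries, though by a log2 fold change of only -0.19 at 48 h, with a 95% interval from -0.47 to 0.10.

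**Figure D4:**
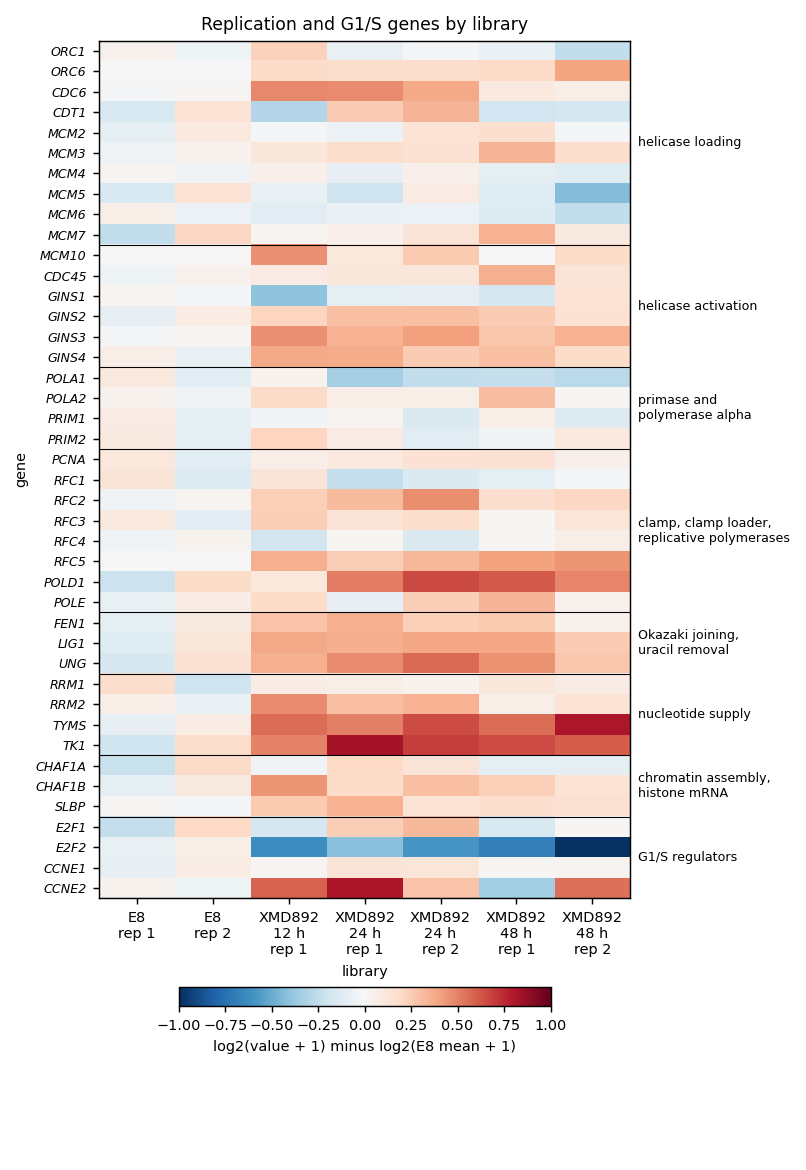
Log2(value + 1) of each member in each library, relative to the mean of the 2 E8 libraries (red higher, blue lower), with members ordered by role. TYMS, TK1 and UNG are red in all 5 treated libraries, and POLD1 is red from 24 h. E2F2 is blue in all 5, and most MCM rows are pale.

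Helicase activation genes had 0 members called in the deposited scaling; with the GC trend removed MCM10 was called higher at 12 h and GINS3 and GINS4 at 24 h. GINS3, a subunit of the 4-part GINS complex, had the largest difference of this role at 48 h. It had 297 and 305 in E8, 414 at 12 h, 383 and 399 at 24 h, then 364 and 384 at 48 h, all treated libraries above E8. The log2 fold change was 0.31 at 48 h and 0.38 at 24 h, with limma adjusted p of 0.25 and 0.14. GINS2 and GINS4 also lay above both E8 libraries in all 5 treated libraries, whereas GINS1 lay below both in 4 of 5. CDC45, the partner of GINS on the helicase, had a log2 fold change of 0.24 at 48 h, and MCM10, which helps to open the origin, had 0.46 at 12 h and 0.09 at 48 h.

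Primase and polymerase alpha genes showed no call either. POLA1, the catalytic subunit of polymerase alpha, had 1538 and 1330 in E8, 1468 at 12 h, 1141 and 1207 at 24 h, with 1219 and 1190 at 48 h. The 24 h and 48 h libraries were below both E8 libraries and the 12 h library lay between these. The log2 fold change of POLA1 was -0.25 at 48 h (limma adjusted p = 0.30). POLA2, PRIM1 and PRIM2, the other subunits, lay between -0.03 and 0.16 at 48 h.

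Of the chromatin assembly genes, CHAF1B differed most at 48 h. It encodes the middle subunit of chromatin assembly factor 1, which deposits histones behind the fork. CHAF1B had 740 and 844 in E8, 1076 at 12 h, 901 and 978 at 24 h, then 935 and 873 at 48 h. All treated libraries were above E8, with a log2 fold change of 0.19 at 48 h (limma adjusted p = 0.46). At 12 h it was 0.44 and not called, and with the GC trend removed CHAF1B was called higher there, at 0.43. CHAF1A, the large subunit, and SLBP, which binds the stem-loop of histone mRNA, had -0.08 and 0.16.

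E2F2 was the only member called lower, and the G1/S regulators did not move as 1 group. E2F2 (chromosome 1, 23506430 to 23531220), an activating E2F factor, had 277 and 305 in E8, 188 at 12 h, 218 and 193 at 24 h, with 180 and 133 at 48 h. Every treated library was below both E8 libraries. It averaged 157 ± 33.5 at 48 h and 291 ± 19.9 in E8 (SD, n = 2 each), a log2 fold change of -0.90 ± 0.20 (SE), or 1.87-fold lower, and limma gave an adjusted p of 0.0057. The call was lost in 1 of 22 alternatives, without 48 h replicate 2, where the adjusted p was 0.12. At 24 h the log2 fold change of -0.50 did not pass limma (adjusted p = 0.097). With the GC trend removed E2F2 was called lower at all 3 times. Its log2 fold change at 48 h was then -1.03, which is more than 2-fold.

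E2F1, the founding member of the E2F family, had 1008 and 1365 in E8, 1050 at 12 h, 1410 and 1489 at 24 h, then 1068 and 1197 at 48 h. It lay above both E8 libraries at 24 h and between these at 12 h and 48 h, and no comparison passed limma on all 7 libraries. E2F1 transcripts are 62.5% GC. Its log2 fold change at 24 h was 0.30 in the deposited scaling and 0.02 with the GC trend removed. For 48 h against 24 h it was -0.36 and -0.20. Cyclin E, made by CCNE1 and CCNE2, activates CDK2 at the entry to S phase. CCNE1 had 996 and 1109 in E8, 1071 at 12 h, 1150 and 1144 at 24 h, with 1061 and 1071 at 48 h. Its log2 fold change at 48 h was 0.02, with a 95% interval from -0.29 to 0.33. CCNE2 had 56.8 and 53.7 in E8, 83.7 at 12 h, 97.9 and 67.3 at 24 h, then 43.2 and 81.3 at 48 h. The 48 h libraries of CCNE2 lay on both sides of E8, and its interval at 48 h, from -0.54 to 0.74, was the widest of the members. CCNE2 also shares 1629 exon bases with INTS8 on the opposite strand. Other overlaps on the opposite strand include 1159 bases of GINS4 with AC009630.2, 1113 of MCM2 with AC023593.1 and 558 of GINS3 with AC009118.2. There MCM7 shares 392 with AP4M1 and FEN1 166 with TMEM258. On the same strand, POLA2 shares 2012 with AP000944.2, RRM2 1077 with AC007240.1, POLD1 426 with AC020909.1 and PRIM1 362 with AC117378.1. RRM2, PCNA, TYMS, FEN1, UNG, RFC3 and RFC5 have annotated pseudogenes, and how reads that match several places were counted is not given in the sources used here.

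Many members lay slightly above E8 without passing the test. In 15 of 42 members, all 5 treated libraries lay above both E8 libraries, while 14% of all tested genes did so. In 2 members, MCM6 and E2F2, all 5 lay below, against 14.8% of all tested genes. By time, 26 members lay above both E8 libraries at 12 h, 25 at 24 h and 16 at 48 h, against 37.1%, 29.8% and 27.3% of all genes. Below both lay 5, 5 and 6 members, against 35.5%, 28.5% and 25% of all genes. The 3 comparisons share the E8 libraries, and members that respond to the same factors are not independent, so these counts are a description. The 15 included ORC6, MCM3, CDC45, LIG1 and SLBP beside the called TYMS, TK1, UNG and CDC6.

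Between treated groups, 0 members were called. For 48 h against 24 h, limma called 1.2% of all genes and 0 members, 3 members had an unadjusted p under 0.05 (CDT1, CDC6 and E2F1, all lower at 48 h) beside 12.7% of all genes, and edgeR and DESeq2 called 0. Without E8 replicate 1, without E8 replicate 2, or with only these groups fitted, CDT1 and CDC6 were called lower, beside 6.39%, 6.26% and 6.38% of all genes. In this contrast 14 members lay lower in both 48 h libraries than in both 24 h libraries and 5 lay higher, against 25.2% and 23.7% of all genes. The 4 G1/S regulators all had negative log2 fold changes, between -0.45 and -0.10. For 24 h against 12 h, limma called 0.391% of all genes and 0 members, 3 had an unadjusted p under 0.05 beside 10.7% of all genes, and edgeR and DESeq2 called 0. Without E8 replicate 1 or without E8 replicate 2, CDT1 and POLD1 were called higher, beside 4.49% and 4.34% of all genes. The largest difference there was that of CDT1, 0.59 on the log2 scale (limma adjusted p = 0.17), or 0.18 with the GC trend removed.

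Levels within a complex were unequal when set per kilobase of annotated exon. In E8, PCNA had the highest level of the 42, 3836 normalised reads per kilobase, and CCNE2 the lowest, 12.6. The ring subunits ran from 2492 for MCM3 and 2462 for MCM7 through 1460 for MCM4, 1262 for MCM6 and 1034 for MCM2 to 807 for MCM5. Among GINS subunits the level was 678 for GINS1, 351 for GINS2, 206 for GINS4 and 58.9 for GINS3. The clamp loader ran from 528 for RFC2 to 246 for RFC5. Among the regulators, E2F1 had 474 and CCNE1 413, against 53.3 for E2F2. Exon lengths merge all annotated transcripts, so these levels are approximate for genes with long rarely used exons. At 48 h PCNA, MCM3 and MCM7 were again the 3 highest, with 4110, 2978 and 2878 per kilobase. TK1 stood at 1195 at 48 h and 772 in E8, and TYMS at 509 at 48 h and 316 in E8.

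**Figure D5:**
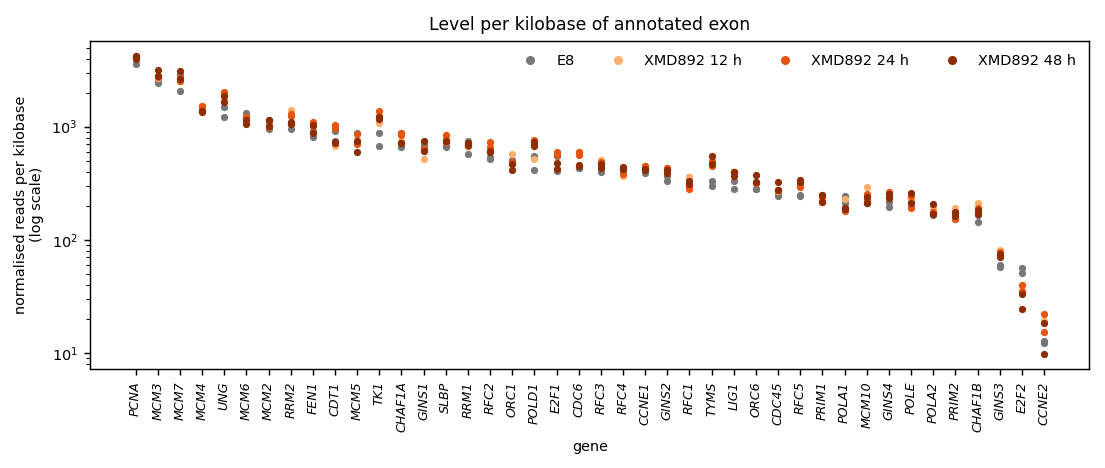
Normalised reads per kilobase of annotated exon (log scale) of each member in each of the 7 libraries, ordered by the E8 mean and coloured by group. PCNA stands highest at 3836 in E8 and CCNE2 lowest at 12.6, and for most members the 7 libraries lie close together.

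Other genes of the same pathway, 103 in 5 lists, were also measured. Of 101 tested, 6 were higher and 5 lower at 48 h, where 5.08% and 6.45% of all tested genes were called so. At 24 h 9 were higher and 6 lower, where 8.66% and 7.56% of all tested genes were. These counts were near the background. The medians were 0.01 at 48 h and 0.04 at 24 h on the log2 scale. Leaving out E8 replicate 2 raised the count of called pathway genes at 24 h and 48 h, and the share of all genes called rose too. Leaving out E8 replicate 1 lowered the count and that share at 24 h. For the refits in the next sentence, the share of all genes called stands above with the members' counts. Leaving out a 48 h library gave 5 or 7 at 48 h, leaving out a 24 h library 5 at 24 h, and removing the GC trend 23 at 48 h. Of 16 genes of the licensing and firing list, limma called 0 at 48 h and RECQL4, a helicase, at 24 h. At 48 h 2 had an unadjusted limma p under 0.05, beside 26.7% of all genes, and edgeR and DESeq2 called 0. Among other replisome genes, 3 of 24 were higher at 48 h and 0 lower. RNASEH2C, a subunit of ribonuclease H2, averaged 1193 at 48 h and 527 in E8. POLE4, a small polymerase epsilon subunit, averaged 457 at 48 h and 230 in E8, and CHTF8, part of an alternative clamp loader, 3065 at 48 h and 2226 in E8. In nucleotide supply, 0 of 11 were higher and 1 was lower at 48 h: RRM2B, the p53-induced ribonucleotide reductase subunit, averaged 933 at 48 h and 1524 in E8. Its direction was opposite to that of TYMS and TK1.

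Of 27 other G1/S regulators tested, 3 were higher and 3 lower at 48 h, beside 5.08% and 6.45% of all tested genes. E2F8, an E2F factor that represses, fell to 261 at 48 h, against 487 in E8 (log2 fold change -0.90, limma adjusted p = 0.0057), whereas E2F7, its partner, stood at 925 at 48 h and 923 in E8. CDKN1A, an inhibitor of cyclin-dependent kinases, had 58.3 and 63.5 at 48 h and 151 and 189 in E8, a log2 fold change of -1.46. CDKN2D, an inhibitor of CDK4 and CDK6, averaged 80.6 at 48 h and 42.5 in E8. Also called higher were CDK4, with 2775 at 48 h and 1724 in E8, and CDKN1C, with 2060 and 1158. CDK6 was called lower, with 1198 at 48 h and 1987 in E8. CDKN1B, CCND1 and CCNA2 did not pass at 48 h, with log2 fold changes of 0.01, -0.24 and -0.07. In the chromatin and repair list HELLS, a chromatin remodeller, was the 1 gene of 23 called at 48 h, with 2722 at 48 h and 4469 in E8.

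Mitosis genes, the next phase of the same cycle, had 0 of 30 called by limma at 48 h, beside 11.5% of all tested genes. There 0 had an unadjusted limma p under 0.05, beside 26.7% of all tested genes, and edgeR and DESeq2 called 0. At 24 h 5 were lower and 0 higher, where 7.56% and 8.66% of all tested genes were called so. The refits that follow also moved the share of all genes called, which stands above with the members' counts. At 24 h the count of lower genes was 15 when E8 replicate 2 was left out, 9 after removal of the GC trend, 0 without 24 h replicate 1 and 2 without 24 h replicate 2. The median log2 fold change of the mitosis genes was -0.16 at 12 h, -0.25 at 24 h and -0.07 at 48 h. That of the replication genes was 0.19, 0.17 and 0.10. At 12 h 18 of the 30 lay below both E8 libraries and 2 above, beside 35.5% and 37.1% of all genes. All 5 called, BUB1B, CENPF, NUF2, MKI67 and NUSAP1, fell at 24 h, MKI67, a proliferation marker, to 4221 at 24 h against 6366 in E8. The difference between both gene groups was not tested.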

How the data were processed

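Poly(A) RNA of 7 H1 samples was sequenced in paired ends on an Illumina NextSeq 500, per the labels' protocols. The submitters' processing notes name Trimmomatic 0.36, STAR, featureCounts 1.5.3, DESeq2 1.26.0 and hg38 without their roles; annotation, strand setting and filters are not given in the sources used here. Deposited is 1 signal value for each gene symbol and library, a read count scaled by the authors with a factor of that library. Divided by its library's smallest step, 100% of the values lay within 0.1 of a whole number, so reads were recovered for edgeR and DESeq2. The file's 2 further columns match no sample and were not used; its rarest gene had 6 reads over the 7 libraries.

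Genes with a mean of 10 or more (16351) were taken to log2 after adding 1. A single limma 3.58.1 model (R 4.3.3) of the 7 libraries estimated group means, with a mean-variance trend in the moderation (3 residual degrees of freedom, prior 18.4). Fold changes are on this scale. The spread of the lone 12 h library, or of a library whose replicate was left out, was taken from the other groups. The code of the fit was run on simulated counts with known changes and no GC trend, which checks the code and not the calls given here. Coordinates, exon lengths and GC content come from GENCODE 29 (GRCh38), which matched 97.7% of symbols.

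The members, lists and tests were chosen with earlier results of these data known. Values in every library are given for members called in any comparison, for the largest difference at 48 h of each role without a call, and for MCM2, MCM6, PCNA, CDC6, CDT1, E2F1, CCNE1, CCNE2, RRM2 and TYMS; of other lists, up to 3 called genes at 48 h and CCND1, CDKN1A, CDKN1B, E2F7, E2F8 and CCNA2. RECQL4, CDK4, CDK6, CDKN1C, the marker genes beyond POU5F1 and SOX2 and the called mitosis genes were named after their values were seen. Alternatives were other pseudocounts, filters and scalings, edgeR 4.0.16 and DESeq2 1.42.0 on reads, robust moderation, only the groups compared, a replicate block, removal of GC trends (loess, span 0.3) and leaving out each replicate.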

Additional observations from a re-analysis of the deposited data

Results flagged for a closer look

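In the deposited scaling CDT1 lay on opposite sides of E8 at 2 times: both 24 h libraries were above both E8 libraries and both 48 h libraries were below both. The direct comparison of 48 h with 24 h gave a log2 fold change of -0.47 for CDT1, with a limma adjusted p of 0.13 and an unadjusted p of 0.0038. CDT1 transcripts are 65.2% GC. With the GC trend removed, the log2 fold change was -0.02 at 24 h and -0.27 at 48 h against E8, and -0.24 for 48 h against 24 h (limma adjusted p = 0.21), so the opposite sides were not seen there.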

How the results depend on the processing

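Other pseudocounts, filters and scalings, edgeR, DESeq2 and robust moderation called 4 members at 48 h, 4 or 5 at 24 h and 0 in the other 3 comparisons, with larger moves when libraries were left out or the GC trend was removed. With the GC trend removed the counts were 7 at 12 h, 11 at 24 h, 8 at 48 h and 1 for 48 h against 24 h. Removing it without E8 replicate 1 gave 4 at 12 h and 1 for 48 h against 24 h, and without E8 replicate 2 it gave 8 at 12 h, 9 at 48 h and 1 for 48 h against 24 h. Leaving out single replicates moved the count from 0 to 8 at 12 h, 1 to 13 at 24 h, 0 to 8 at 48 h, 0 to 2 for 48 h against 24 h and 0 to 2 for 24 h against 12 h. Fitting only the groups compared called 2 members for 48 h against 24 h, and this fit could not be run for the 12 h comparisons. The cause of these differences was not tested. No member changed sign in a comparison with E8 where it was called in either fit. Replicate numbers did not pair the libraries: same-numbered deviations correlated at -0.035, -0.048 and -0.071. A replicate block called 4 at 48 h and 4 at 24 h (without CDC6), beside 12% and 16.1% of all genes. The block called 0 elsewhere, beside 7.53% of all genes at 12 h. With the GC trend removed the block called 6 at 12 h, beside 12.2% of all genes. For the other genes of the pathway, the count at 12 h, 24 h and 48 h was 3, 15 and 11, beside 7.46%, 16.2% and 11.5% of all genes. With the GC trend removed it was 23 at 48 h and 18 at 12 h, and 12 at 12 h with the replicate block as well; DESeq2 called 5 at 12 h. With the GC trend removed it was 22 at 48 h and 18 at 12 h without E8 replicate 2, and 7 at 24 h and 13 at 12 h without E8 replicate 1. Leaving out single replicates gave 1 to 21 at 12 h, 4 to 38 at 24 h and 5 to 35 at 48 h. Over all genes, limma called 1884 at 48 h, edgeR 1872 and DESeq2 1560; the count was 3141 with the GC trend removed, 4057 without E8 replicate 2 and 791 and 823 without 48 h replicate 1 or 2. Depth limited CCNE2 most, at 40 reads in its lowest library.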
